A study of Mus musculus with 4 samples.

Results

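The 6 genes described here encode the CTLA-4, CD28 and ICOS receptors of T cells (Ctla4, Cd28, Icos) and the ligands they bind on antigen-presenting cells (Cd80, Cd86, Icosl). They were chosen by name, with no measured value in the rule, and all 6 were among the 19059 genes counted. CD45+ cells were sorted from subcutaneous tumors of MC38, a colon carcinoma line of the mouse, in B-hCTLA-4 mice on a C57BL/6 background, and single-cell RNA sequencing was done with 1 library per treatment group. Every library came from a pool of 11 mice, taken on day 8 after 3 treatments begun at tumors of about 100 mm3. The groups were isotype control (human IgG1, 10 mg/kg), the combination of ipilimumab, a human IgG1 against human CTLA-4 (10 mg/kg), with AT130-2, a mouse IgG1-N297A against mouse FcγRII whose Fc part is mutated to weaken FcγR binding (20 mg/kg), and 2 groups that received a single antibody. For the single-antibody groups the sample titles and the treatment fields name opposite antibodies, so they are called single antibody A (titled for anti-human CTLA-4) and single antibody B (titled for anti-mouse FcγRII), and which of them received ipilimumab is not settled here. The study's methods give fewer tumors, an earlier day and lower doses of ipilimumab and of the antibody against FcγRII than these labels. All libraries share the humanized CTLA-4 allele and the tumor line and are labelled as 1 batch. The feature table holds the mouse gene Ctla4 and no human CTLA4, and the part of the gene that is humanized is not given in the sources used here, so a Ctla4 count means transcripts that the mouse probes captured.

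Because each group is 1 library of pooled animals, no difference between groups could be tested. A UMI (unique molecular identifier) stands for 1 captured RNA. A level is given in CPM, the UMIs of the gene per 1000000 UMIs of all genes in the cell class, and intervals are exact 95% intervals that cover counting error only. A treatment and its library cannot be told apart. The deposited matrices held 6097 to 8173 cells and 129151823 to 196362818 UMIs per library, and 26785 of 28290 cells were kept. No full cell barcode was shared between libraries, while each pair of libraries shared the first 16 bases of 712 to 1148 barcodes. The full barcodes are thus not read as a check that the libraries were separate. The kept cells formed 27 clusters, with the 6 genes left out of the features used for clustering. T cells made up 1975 cells. A further 2124 cells carried T cell and macrophage transcripts together in deep profiles with a median of 29933 UMIs per cell, against 4294 in the main T cell cluster, and were kept apart as mixed profiles. Within the T cells, macrophage transcripts were also present: the 14 macrophage markers summed to 17007, 7163, 17854 and 14379 CPM in isotype control, A, B and combination, and no marker was at 0 in any of them.

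CD28 gives a T cell its costimulatory signal when CD80 or CD86 on an antigen-presenting cell engages it together with antigen recognition. CTLA-4 binds the same ligands more tightly, dampens the response and, on regulatory T cells (Tregs), strips the ligands from the partner cell. ICOS is induced on activated T cells and has its own ligand, ICOSL. Tregs of tumors are known to carry CTLA-4 and ICOS at high levels.

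The receptor genes lie side by side on chromosome 1 (GRCm38, the build named for the files as mm10), all on the plus strand: Cd28 at chr1:60716800-60773359, Ctla4 at chr1:60887000-60915832 and Icos at chr1:60977927-61000320. Cd80 (chr16:38455561-38496335, plus strand) and Cd86 (chr16:36603869-36666081, minus strand) share chromosome 16, and Icosl is at chr10:78069302-78083913 on the plus strand. CTLA-4 and CD28 share their ligands and ICOS does not, and the sequences of the ligand-binding loop are printed to set these receptors side by side. They are the mouse reference, from exon 2 of the GENCODE transcripts, with the 18 bases for the proline-rich loop that contacts the ligand in capitals (residues 134 to 139 of CTLA-4, 118 to 123 of CD28 and 114 to 119 of ICOS).
Ctla4, chr1:60912707-60912736: gaactcATGTACCCACCGCCATACtttgtg
Cd28, chr1:60763269-60763298: gagttcATGTACCCTCCGCCTTACctagac
Icos, chr1:60993977-60994006: tccattTTTGACCCACCTCCTTTTcaagaa
The loops of Ctla4 and Cd28 were identical at 16 of 18 bases and encoded the same 6 residues, while that of Icos matched either of them at 11 of 18 bases and 3 of 6 residues. The Ctla4 stretch is that of the mouse gene. Since the humanized part of the gene is not given, the B-hCTLA-4 animals may not carry this stretch.

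The receptors were found in T cells and, at lower levels, in NK cells and ILC1. T cells were divided by their own UMIs into Tregs (Cd4 and Foxp3, no Cd8a or Cd8b1), conventional CD4 T cells (Cd4, no Foxp3 or Cd8), CD8 T cells (Cd8a or Cd8b1, no Cd4 or Foxp3) and CD4 CD8 negative T cells. The mean Ctla4 level over the 4 libraries was highest in Tregs (426 CPM, range 336 to 477), followed by conventional CD4 T cells (120, range 94.7 to 151) and CD8 T cells (60.02, range 48.1 to 84.4), and these ranges did not overlap. Icos was also highest in Tregs (mean 857, range 540 to 1118), but its range overlapped that of conventional CD4 T cells (583, range 454 to 760). Both stood clear of CD8 T cells (208, range 161 to 262) in Icos. Cd28 had a different order, with the highest mean in conventional CD4 T cells (331, range 251 to 503) and then Tregs (218, range 151 to 290) and CD8 T cells (176, range 113 to 272), and each of these ranges overlapped the next. In monocytes and macrophages the means were 2.21 for Ctla4, 5.69 for Cd28 and 7.22 for Icos. These classes are shown in the plot of receptor levels by cell class.

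**Figure D1:**
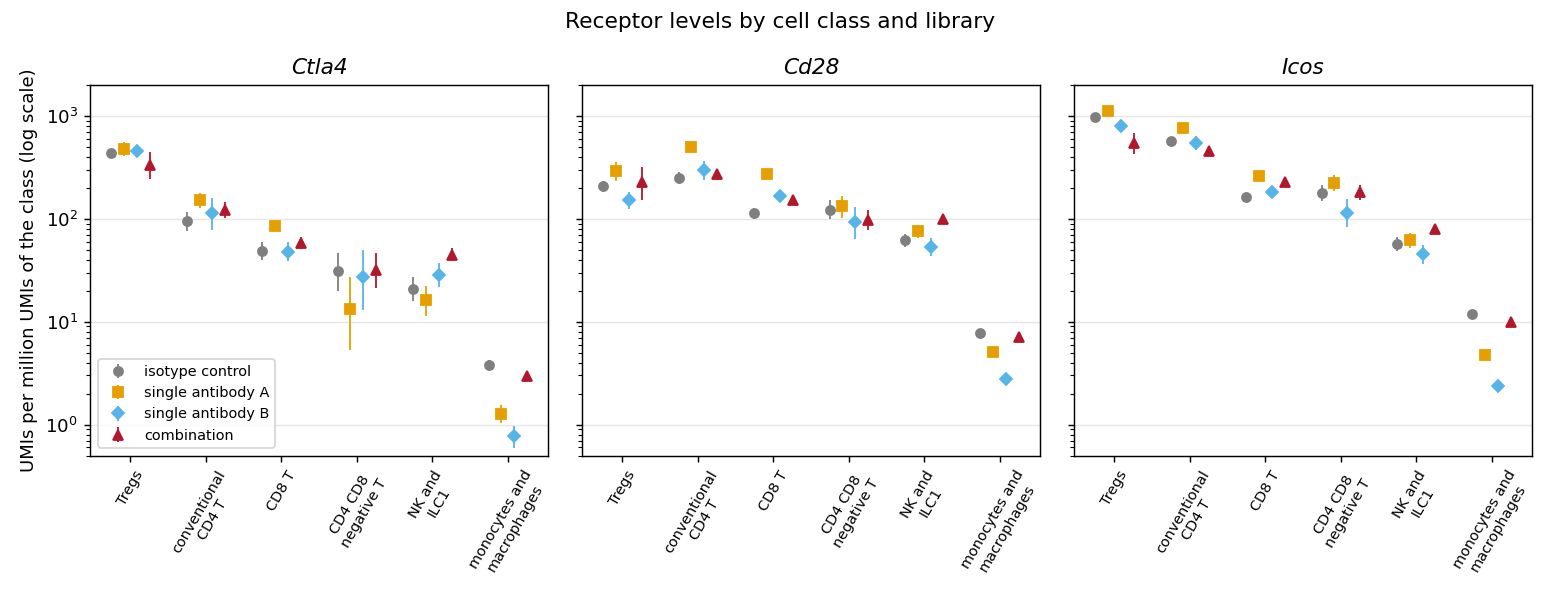
Levels of Ctla4, Cd28 and Icos (CPM, log axis) in 6 cell classes, with 1 point per library and exact 95% Poisson intervals. Ctla4 was highest in Tregs in all 4 libraries (336 to 477 CPM), whereas Cd28 was highest in conventional CD4 T cells (251 to 503).

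Ctla4 in T cells as a whole had its lowest CPM in the combination. Its level was 132 CPM in isotype control, 108 in A, 158 in B and 68.4 in the combination. The ratio of combination to isotype control was 0.52 (95% interval 0.46 to 0.58). When each T cell was thinned to 2355 UMIs, the 10th percentile of the class, the share of T cells with a Ctla4 UMI was 29.4% in isotype control (interval 25.1 to 33.8), 22.3% in A (19.1 to 25.8), 24.9% in B (19.7 to 30.8) and 20.3% in the combination (16.8 to 24.3), with 25 to 66 shallower cells per library left out. Without thinning the shares were 46.5%, 41.4%, 46.0% and 44.1%. B was above isotype control in level but not in share, so no order is read between those 2 libraries. Where macrophage markers took less than 1% of a T cell's UMIs, the levels were 280, 136, 197 and 121 CPM in the same order. There B was below isotype control (ratio 0.70, 0.60 to 0.82), and so was A (0.48, 0.43 to 0.54). The combination was not apart from A in those cells (0.90, 0.79 to 1.02). In the monocyte clusters, which should lack the gene, the thinned share over all libraries was 0.190%, at a median of 9402 UMIs per cell against 6143 in the T cells.

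The number of Tregs differed along with it. Tregs were 101 of 497 T cells (20.3%, interval 16.9 to 24.1) in isotype control, 50 of 698 (7.16%, 5.36 to 9.34) in A, 52 of 274 (19.0%, 14.5 to 24.1) in B and 9 of 506 (1.78%, 0.816 to 3.35) in the combination. They held 58.2% of the T cells' Ctla4 UMIs in isotype control, 23.1% in A, 56.2% in B and 8.85% in the combination. Outside Tregs, the Ctla4 level was 67.0, 87.4, 86.0 and 63.5 CPM in the same order, and the ratio of combination to isotype control became 0.95. With the mix of T cell subsets held at that of isotype control, the ratio was 0.86. The macrophage transcripts in the T cells, unequal between libraries, were not removed from these values. The gate was checked with Treg genes. Il2ra, the IL-2 receptor alpha chain, was at 804 CPM in isotype control Tregs against 287 in conventional CD4 T cells and 115 in CD8 T cells. In the 9 Tregs of the combination Il2ra was at 182, below the conventional CD4 T cells of isotype control. Within the combination itself it was at 109 in conventional CD4 T cells and 168 in CD8 T cells, both below its Tregs. The other Treg genes, named here after their values were seen, were also lower in these cells than in isotype control Tregs for Ikzf2 (423 against 665), Tnfrsf18 (438 against 680) and Tnfrsf4 (314 against 593), but not for Ccr8 (234 against 181). Set against conventional CD4 T cells of the combination, its 9 Tregs were well above in Ikzf2 (423 against 79.2). They were close to those cells in Tnfrsf18 (438 against 440), Tnfrsf4 (314 against 286) and Ccr8 (234 against 221). The gate thus rests on Foxp3 UMIs and few cells there.

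Within Tregs, the Ctla4 level was 434 CPM in isotype control (519 UMIs in 101 cells), 477 in A (158 UMIs in 50 cells), 458 in B (361 UMIs in 52 cells) and 336 in the combination (46 UMIs in 9 cells). The ratio of combination to isotype control was 0.77, with an interval of 0.56 to 1.05 that includes 1. Macrophage markers summed to 15187 CPM in these Tregs in isotype control and to 3324 in A. Per 1000 UMIs of Cd3d, Cd3e and Cd3g, a scale that such RNA does not dilute, Tregs had 239 Ctla4 UMIs in isotype control, 155 in A, 286 in B and 197 in the combination, so that A was then the lowest. The ratio of combination to isotype control was 0.82 (0.59 to 1.15) on that scale, and 0.69 (0.48 to 0.97) in Tregs in which macrophage markers took less than 1% of UMIs. The combination had 7 such Tregs with 37 Ctla4 UMIs. A (0.69, 0.57 to 0.84) and B (0.62, 0.51 to 0.75) were below isotype control there too. The combination was not apart from A (0.99, 0.67 to 1.43) or B (1.12, 0.76 to 1.61). A Ctla4 UMI was seen in 91 of 101, 45 of 50, 46 of 52 and 6 of 9 Tregs. Ctla4 and Icos were seen in the same Treg in 88, 45, 44 and 6 of these cells.

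Icos in T cells was likewise lowest in the combination, at 383 CPM in isotype control, 388 in A, 371 in B and 244 in the combination. The ratio of combination to isotype control was 0.64 (interval 0.60 to 0.68), and 0.92 without Tregs. It was 0.77 with the mix of T cell subsets held at that of isotype control. Where macrophage markers took less than 1% of a T cell's UMIs, Icos was at 870, 483, 600 and 412 CPM in isotype control, A, B and combination. There A (0.56, 0.52 to 0.59) and B (0.69, 0.63 to 0.75) were also below isotype control, as was the combination (0.47, 0.44 to 0.51). The thinned share of T cells with an Icos UMI was 53.6% (48.9 to 58.4) in isotype control and 45.7% (41.1 to 50.4) in the combination (74.0% and 71.3% without thinning). Within Tregs, the Icos level was 967 CPM in isotype control, 1118 in A, 805 in B and 540 in the combination. The ratio of combination to isotype control was 0.56 (0.44 to 0.71), apart from 1 beyond counting error. Where macrophage markers took less than 1% of a Treg's UMIs it was 0.48 (0.37 to 0.63). Icos in A (0.69, 0.61 to 0.79) and B (0.69, 0.61 to 0.78) was also below isotype control there. The combination was below A (0.70, 0.52 to 0.92) and B (0.70, 0.53 to 0.92), from 7 cells. The Ctla4 ratio of combination to isotype control (0.69, 0.48 to 0.97) was apart from 1 in those Tregs too, as were those of A and B. The Icos ratio of 0.56 over all Tregs rests on 74 UMIs in 9 cells of very unequal depth. The deepest had 43910, 31766 and 24739 UMIs, with 5, 19 and 8 Icos UMIs, and the others had 790 to 9283 UMIs. The pooled level thus leans on few cells. Per 1000 Cd3 UMIs, Tregs had 532, 363, 502 and 316 Icos UMIs.

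Cd28 showed another pattern. Its level in T cells was 152 CPM in isotype control, 293 in A, 160 in B and 150 in the combination. Over all T cells, the combination and isotype control could not be told apart (ratio 0.99, interval 0.91 to 1.07), while A stood 1.93-fold above isotype control (1.79 to 2.08). The thinned share of T cells with a Cd28 UMI was 41.3% in isotype control (36.7 to 46.1) and 39.4% in the combination (34.9 to 44.0), and 67.2% and 70.0% before thinning. Macrophage transcripts in the T cells moved with the level in A, since their markers summed to 7163 CPM there against 14379 to 17854 elsewhere. In T cells in which macrophage markers took less than 1% of UMIs, Cd28 was at 319, 350, 262 and 254 CPM in isotype control, A, B and combination, and A was then 1.10-fold above isotype control (1.003 to 1.204). In those cells the combination was below isotype control (0.80, 0.72 to 0.88), and so was B (0.82, 0.72 to 0.94).

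UMIs of the T cell receptor complex genes Cd3d, Cd3e and Cd3g provide a denominator that macrophage RNA does not dilute, and allow the mixed profiles to be used. This denominator was chosen after the values had been seen. Per 1000 Cd3 UMIs, T cells had 68.8 Ctla4 UMIs in isotype control, 27.9 in A, 69.3 in B and 31.1 in the combination. The mixed profiles, which held 49.6% of all Ctla4 UMIs, had 85.0, 38.4, 76.3 and 32.3. In both sets of cells, A and the combination were thus below isotype control and B. Icos followed the same order, with 200, 101, 162 and 111 UMIs per 1000 Cd3 UMIs in T cells and 254, 130, 218 and 113 in the mixed profiles. Foxp3, the lineage factor of Tregs, was at 96.6, 23.04, 83.1 and 7.43 in T cells and at 139, 50.1, 122 and 9.79 in the mixed profiles. Cd28 varied least, between 68.3 and 79.2 in T cells and between 69.6 and 84.9 in the mixed profiles. On this scale the ratio of combination to isotype control in T cells was 0.45 (0.41 to 0.51) for Ctla4, 0.56 (0.52 to 0.59) for Icos and 0.86 (0.79 to 0.94) for Cd28.

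**Figure D2:**
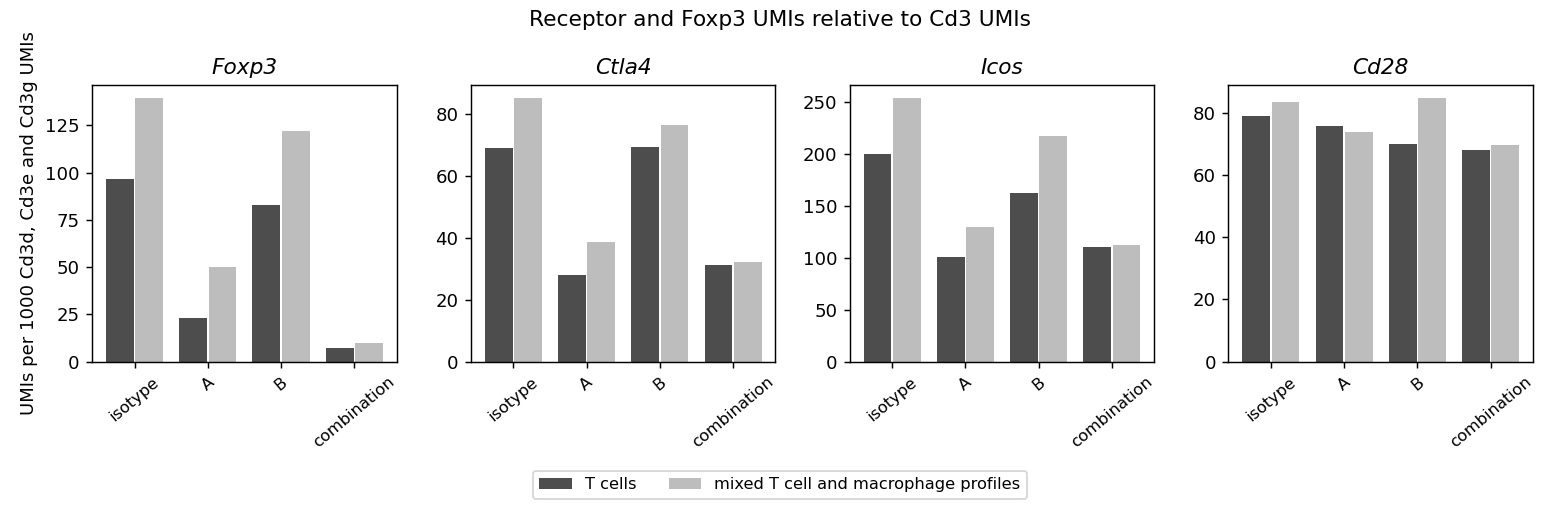
Foxp3, Ctla4, Icos and Cd28 UMIs per 1000 Cd3d, Cd3e and Cd3g UMIs (bars from 0), by library, in T cells (dark) and in mixed T cell and macrophage profiles (light). In both sets of cells Foxp3, Ctla4 and Icos were lower in single antibody A and the combination than in isotype control and B, while Cd28 stayed between 68.3 and 84.9.

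Conventional CD4 T cells and CD8 T cells were then taken one by one. In conventional CD4 T cells, Ctla4 was at 94.7 CPM in isotype control, 151 in A, 113 in B and 123 in the combination, and the ratio of combination to isotype control was 1.30 (0.98 to 1.72). Cd28 was at 251, 503, 297 and 271 in the same cells, with a ratio of 1.08 (0.90 to 1.29). Icos was at 568, 760, 551 and 454, with a ratio of 0.80 (0.70 to 0.91). The Icos ratio was 1.02 as a mean over cells and the Cd28 ratio 0.87 with doublets kept, so neither direction was stable. Macrophage markers in these cells summed to 12561 CPM in isotype control, 3166 in A, 17065 in B and 15626 in the combination. Cells in which these markers took less than 1% of UMIs were also taken alone. There A was at 0.95 of isotype control for Ctla4, 1.23 for Cd28 and 0.89 for Icos. The combination was at 1.05, 0.99 and 0.74 of isotype control. The B library had only 44 conventional CD4 T cells.

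In CD8 T cells, Ctla4 was at 48.8 CPM in isotype control, 84.4 in A, 48.1 in B and 58.8 in the combination (ratio of combination to isotype control 1.2, 0.95 to 1.53). Cd28 was at 113, 272, 166 and 153 (1.35, 1.16 to 1.58) and Icos at 161, 262, 181 and 226 (1.40, 1.24 to 1.59). Macrophage markers in the CD8 T cells summed to 17805 CPM in isotype control, 7458 in A, 18783 in B and 12870 in the combination. Among CD8 T cells in which macrophage markers took less than 1% of UMIs the ratios were 0.95 for Ctla4, 0.96 for Cd28 and 1.01 for Icos. Per Cd3 UMI the ratios were 1.02, 1.14 and 1.19. In the cells with less than 1%, A was at 0.94 of isotype control for Ctla4 and 1.27 for Cd28. For Icos A was there at 0.86 (0.75 to 0.99), below isotype control.

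At the main settings, no member reached a 2-fold difference between combination and isotype control in all T cells. There 1.90% of the 5378 genes with at least 50 CPM in either library did. The Ctla4 ratio of 0.52 lay near that line. It was 0.47 with doublets kept, 0.499 at resolution 0.4, 0.494 at resolution 1.2 and 0.45 per Cd3 UMI. It was 0.55 without integration and 0.95 without Tregs. In T cells in which macrophage markers took less than 1% of UMIs it was 0.43, and Icos was at 0.47. No member was past 2-fold in CD8 T cells either (2.78% of genes). In conventional CD4 T cells (4.96% of genes) the single member past 2-fold was not a receptor but Cd80, at 19.2 CPM (18 UMIs) in isotype control and 60.9 (60 UMIs) in the combination, a ratio of 3.18 (1.85 to 5.72). In those in which macrophage markers took less than 1% of UMIs the ratio was 3.65 (1.72 to 8.61), from 9 and 36 UMIs. Cd86 was past 2-fold in those cells too (2.06, 1.29 to 3.37), from 27 and 61 UMIs. For the T cells and conventional CD4 T cells with less than 1%, the share of all genes past 2-fold is not given here. Members past that line there are therefore not read as a result about these genes.

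NK cells and ILC1 carried the receptors at a lower level. Ctla4 was at 21.0 CPM in isotype control, 16.2 in A, 28.4 in B and 44.8 in the combination, a ratio of 2.14 (1.58 to 2.92) of combination to isotype control. Cd28 was at 61.8, 75.8, 53.4 and 100.0 (ratio 1.62, 1.35 to 1.94), and Icos at 57.2, 62.2, 45.4 and 79.9 (1.40, 1.15 to 1.70). The signal lay mainly in the cluster led by the granzymes Gzmc and Gzmd, where Ctla4 was at 41.2, 29.5, 41.6 and 67.3, and far less in the cluster led by Gzma and Eomes, where it was at 5.62, 1.82, 11.4 and 10.1. These cells had few Cd3 transcripts: their 181 Ctla4 UMIs in the combination stood beside 685 Cd3 UMIs, or 264 per 1000, against 31.1 per 1000 in T cells. With the mix of the 2 clusters held at that of isotype control, the ratios were 1.66 for Ctla4, 1.33 for Cd28 and 1.21 for Icos. Within the Gzmc cluster they were 1.63 (1.18 to 2.29), 1.52 (1.23 to 1.91) and 1.24 (0.98 to 1.57), so that Icos did not stand apart from 1 there. Within the Gzma cluster none did, with 1.79 (0.75 to 4.602), 0.99 (0.69 to 1.43) and 1.16 (0.81 to 1.68).

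Receptor UMIs in monocytes and macrophages were few, and were set against Cd3 UMIs there. Cd28 stood out in the cluster whose leading genes include Hmox1, which encodes a heme-degrading enzyme, and Gpnmb. There Cd28 was at 23.1 CPM in isotype control, 15.3 in A, 11.7 in B and 12.3 in the combination, and per 1000 Cd3 UMIs it was at 260, 640, 968 and 135, against 68.3 to 79.2 in T cells. The other monocyte and macrophage clusters together had 85.9 to 123 Cd28 UMIs per 1000 Cd3 UMIs. Ctla4 in the Hmox1 cluster was at 24.0 to 41.5 per 1000 Cd3 UMIs. In isotype control it was below T cells (38.4 against 68.8, from 37 Ctla4 UMIs). The cluster had only 7, 3 and 39 Ctla4 UMIs in A, B and combination, so no direction against T cells is read there.

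The ligands were spread over more cell types, and each had its own order. Cd80 was highest in neutrophils (mean 339 CPM, range 193 to 414) and dendritic cells (206, range 174 to 297), whose ranges overlapped, and lower in monocytes and macrophages (51.3, range 41.1 to 63.8). Cd86 was highest in dendritic cells (338, range 272 to 437), and monocytes and macrophages (155, range 121 to 194) came well below. Icosl was high in B cells (195, range 47.3 to 359) and dendritic cells (187, range 141 to 217), then in neutrophils (93.4, range 63.1 to 115) and in monocytes and macrophages (68.0, range 45.5 to 84.6). The B cell values rest on 8 to 23 cells per library. Mast cells and basophils had almost no Icosl (3.28) or Cd80 (8.90), yet had 69.8 for Cd86. By their number, monocytes and macrophages still held 65.7% of all Cd80 UMIs, 67.4% of Cd86 UMIs and 62.6% of Icosl UMIs.

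**Figure D3:**
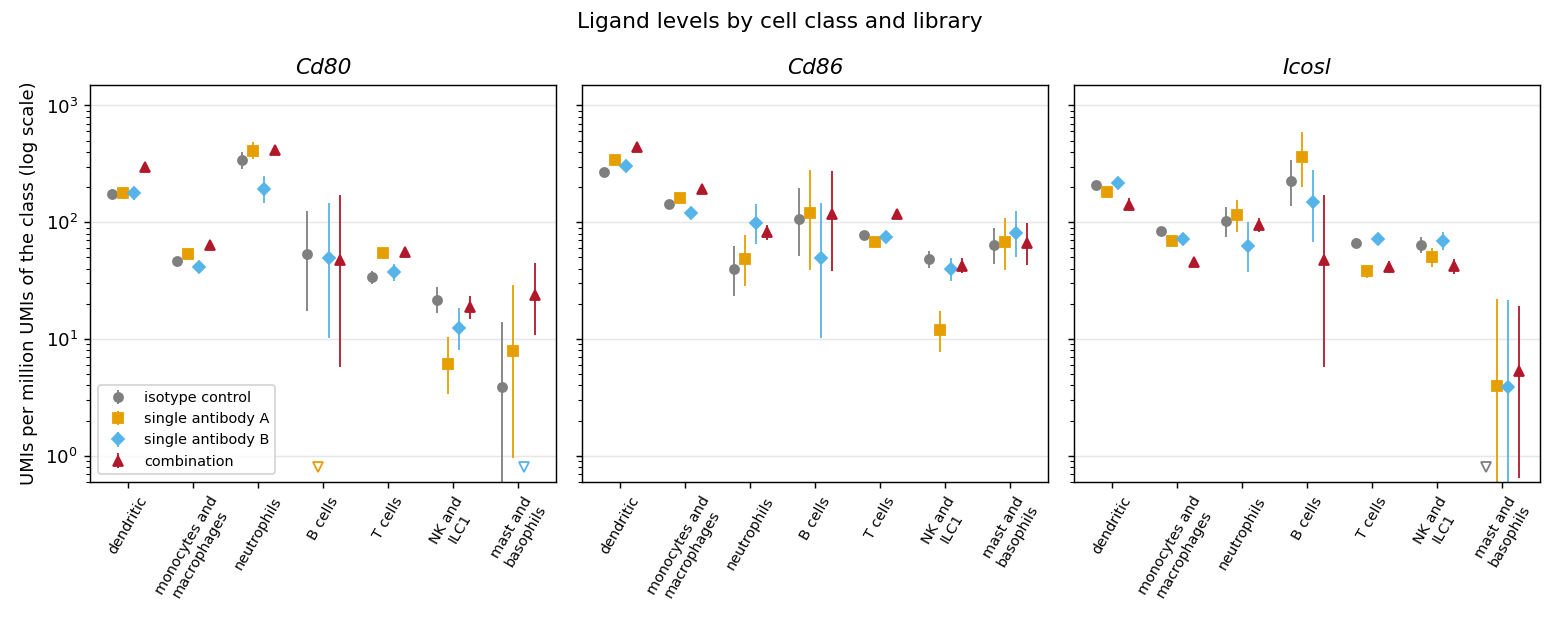
Levels of Cd80, Cd86 and Icosl (CPM, log axis) in 7 cell classes, with 1 point per library and exact 95% Poisson intervals, and open triangles where no UMI was counted. In monocytes and macrophages and in dendritic cells the combination had the highest Cd80 and Cd86 levels and the lowest Icosl level.

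In monocytes and macrophages the ligands of CD28 and CTLA-4 and the ligand of ICOS differed in opposite directions. Cd80 was at 46.7 CPM in isotype control, 53.6 in A, 41.1 in B and 63.8 in the combination. Cd86 was at 142, 162, 121 and 194. Icosl was at 84.6, 69.5, 72.2 and 45.5, in the same order. The combination thus had the highest Cd80 and Cd86 and the lowest Icosl, and its ratios to isotype control were 1.37 (1.31 to 1.42) for Cd80, 1.36 (1.33 to 1.39) for Cd86 and 0.54 (0.52 to 0.56) for Icosl. A was also above isotype control for Cd80 (1.15, 1.10 to 1.197) and Cd86 (1.14, 1.11 to 1.16), whereas B was below it (0.88, 0.84 to 0.92, and 0.85, 0.83 to 0.87). For Icosl both A (0.82, 0.79 to 0.85) and B (0.85, 0.83 to 0.88) were below isotype control. None of the 3 ligands was past 2-fold, as were 2.43% of 4682 genes in this class. The median of these genes was 0.94 of isotype control, and scaling by the median of ratios gave 1.47, 1.47 and 0.58.

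The shares of cells gave the same order. With each cell thinned to 6753 UMIs, 23.7% of monocytes and macrophages had a Cd80 UMI in isotype control (22.5 to 25.05) and 31.9% in the combination (30.5 to 33.4). For Cd86 the shares were 52.7% (51.2 to 54.2) and 64.6% (63.1 to 66.1), and for Icosl 37.6% (36.1 to 39.0) and 23.4% (22.1 to 24.8). Between 314 and 649 shallower cells per library were left out. Unthinned, the shares were 40.4% and 54.3% for Cd80, 71.7% and 84.7% for Cd86, and 57.1% and 46.6% for Icosl. In mast cells and basophils thinned to 5478 UMIs, Cd80 was seen in 3.91% of cells, Icosl in 1.58% and Cd86 in 23.5%. Cd80 and Cd86 were seen together in 32.6% of monocytes and macrophages in isotype control, 38.2% in A, 31.7% in B and 48.8% in the combination, without thinning.

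The differences were present within most of the 13 monocyte and macrophage clusters. Icosl was lower in the combination than in isotype control in 13 of 13 clusters, with ratios from 0.42 to 0.82 (median 0.54) and intervals below 1 in 12. The exception was the cluster led by Ace and Treml4, genes of nonclassical monocytes, at 44.9 and 36.7 CPM. Cd86 was higher in 11 of 13 clusters (ratios from 0.91 to 1.54, median 1.33) and Cd80 in 12 of 13 (0.96 to 1.92, median 1.29). Icosl exceeded isotype control in 2 of 13 clusters in A and in 0 in B, so a lower Icosl was not particular to the combination. Cd86 exceeded it in 9 clusters in A and 2 in B, and Cd80 in 10 and 6. With the mix of clusters held at that of isotype control, the ratios of the combination were 1.35 for Cd80, 1.33 for Cd86 and 0.55 for Icosl, close to the pooled values. Held in this way, A was at 1.16, 1.12 and 0.83, and B at 0.94, 0.88 and 0.85. An unnamed cluster of 2271 cells, led by Gbp2b, Dnase1l3 and Cxcl9 and rich in macrophage transcripts, was kept out of the class and held 7.12% of the cells of isotype control, 9.59% of A, 8.63% of B and 8.88% of the combination. It had Icosl at 105, 100.3, 89.1 and 52.1 CPM.

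**Figure D4:**
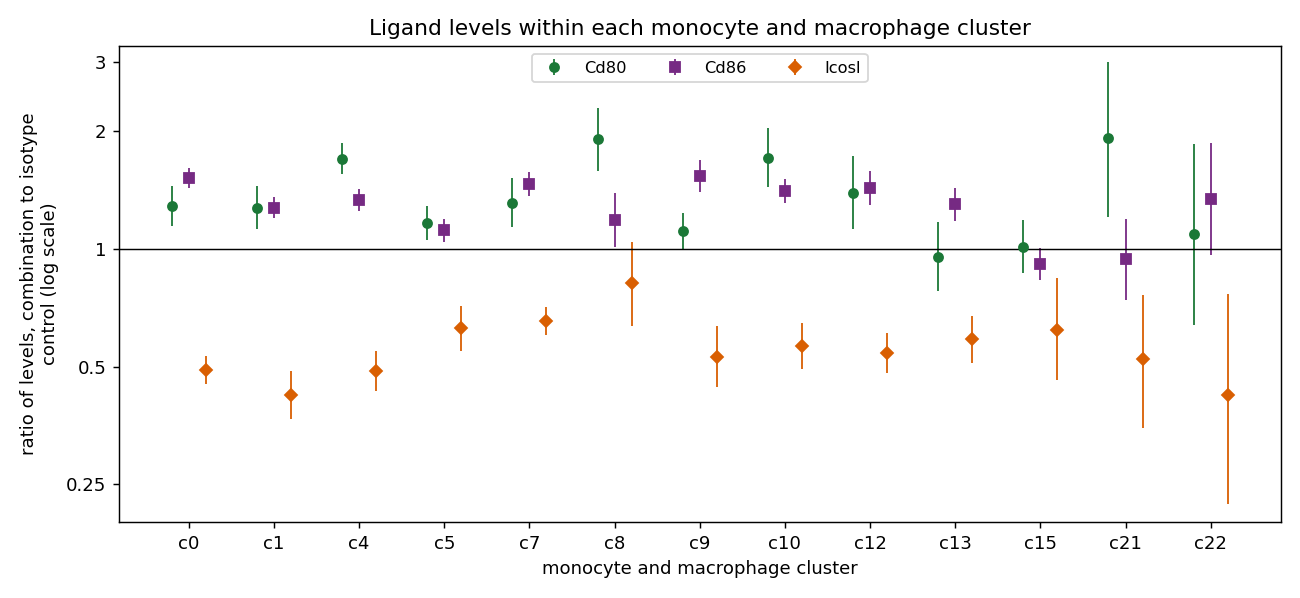
Ratio of the level in the combination to that in isotype control (log axis, 1 marked by a line) for Cd80, Cd86 and Icosl in each of 13 monocyte and macrophage clusters, with exact 95% intervals. Icosl lies below 1 in all 13 clusters, and Cd86 above 1 in 11.

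Each ligand also had its own order among the clusters. Cd80 was highest in the cluster led by Spp1 and Arg1 (136 CPM over all libraries) and in the monocytes led by Chil3 and Plac8 (129), and low in the cluster led by Cbr2 and Folr2 (26.4). Cd86 was highest in the Chil3 monocytes (281). Icosl was lowest in the cluster led by Mmp12 and Nos2 (22.2), where Cd86 was at 238 and Cd80 at 96.8. Nos2 encodes inducible nitric oxide synthase, made by inflammatory macrophages.

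Cells with 3 or more Nos2 UMIs were therefore set against cells with none within each library, a comparison chosen after the values had been seen. In isotype control the Nos2 cells (572 of 4940) had Icosl at 60.4 CPM against 89.4 in cells with no Nos2 UMI, Cd86 at 213 against 126 and Cd80 at 68.5 against 43.0. The ratio of Nos2 cells to the others was 0.65 to 0.71 for Icosl, 1.53 to 1.91 for Cd86 and 1.19 to 1.59 for Cd80 over the 4 libraries. In the combination 2102 of 4178 cells had 3 or more Nos2 UMIs. Its cells with no Nos2 UMI had Icosl at 55.7 CPM, against 76.0 to 89.4 in the other libraries, and Cd86 at 149 against 106 to 136. Such cells had a median of 13557 UMIs in isotype control and 16094 in the combination. A cell with no captured Nos2 UMI may still have held Nos2 RNA, and the cause of these differences was not tested.

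Dendritic cells, the class with the most Cd86, were 232, 148, 97 and 124 cells in isotype control, A, B and combination. Cd80 was at 174, 178, 177 and 297 CPM, Cd86 at 272, 338, 304 and 437, and Icosl at 208, 182, 217 and 141. In these pooled levels the combination stood apart from the other 3 libraries in each. Its ratio to isotype control was 1.71 (1.497 to 1.95) for Cd80, 1.61 (1.45 to 1.79) for Cd86 and 0.68 (0.58 to 0.79) for Icosl, and none was past 2-fold, as were 4.09% of 4985 genes. As means over cells the Cd80 and Cd86 ratios were 2.02 and 1.99. Thinned to 5478 UMIs, Cd80 was seen in 36.4% of dendritic cells in isotype control (29.8 to 43.4) and in 57.2% in the combination (47.5 to 66.9).

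The class was made up of 7 parts with very unequal ligand levels. Migratory dendritic cells, marked by Ccr7 and Fscn1, were the highest part for Cd80 and Icosl (628 CPM for Cd80, 486 for Cd86 and 269 for Icosl over all libraries, 104 cells). The part led by Cxcl10 had 220, 528 and 208, and the part led by Cd101 had 147, 390 and 214. The part led by Ccl24, which carried macrophage markers, had 93.9, 214 and 156. The Xcr1 part, with markers of conventional type 1 dendritic cells, had 24.4, 268 and 122. The Siglech part, with markers of plasmacytoid cells, was the lowest part for each ligand, with 6.06, 22.2 and 84.8, and the Hpgd part had 37.7, 50.7 and 129. The makeup of the class differed between libraries. Migratory cells were 15.9% of the dendritic cells in isotype control (interval 11.5 to 21.3) and 29.0% in the combination (21.2 to 37.9), and the Cxcl10 part 14.2% (10.0 to 19.4) and 38.7% (30.1 to 47.9). Within the migratory cells Cd80 was at 667, 734, 435 and 648 CPM, and within the Cxcl10 part at 160, 192, 242 and 262. The combination exceeded isotype control in 3 of 7 parts for Cd80, 6 for Cd86 and 2 for Icosl. Within the migratory cells Icosl was at 301, 230, 426 and 176 CPM in isotype control, A, B and combination, and Cd86 at 403, 706, 308 and 557. Within the Cxcl10 part Icosl was at 295, 290, 168 and 124, and Cd86 at 359, 466, 603 and 626. With the mix of parts held at that of isotype control, the ratios of combination to isotype control were 1.23 for Cd80, 1.21 for Cd86 and 0.77 for Icosl. Held in the same way, A was at 1.14, 1.24 and 0.81, and B at 0.91, 1.05 and 0.999. The combination was then not above A for Cd86, and was close to A for Icosl. The parts were found from genes that may themselves differ between libraries, and some held 5 to 7 cells of the combination.

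**Figure D5:**
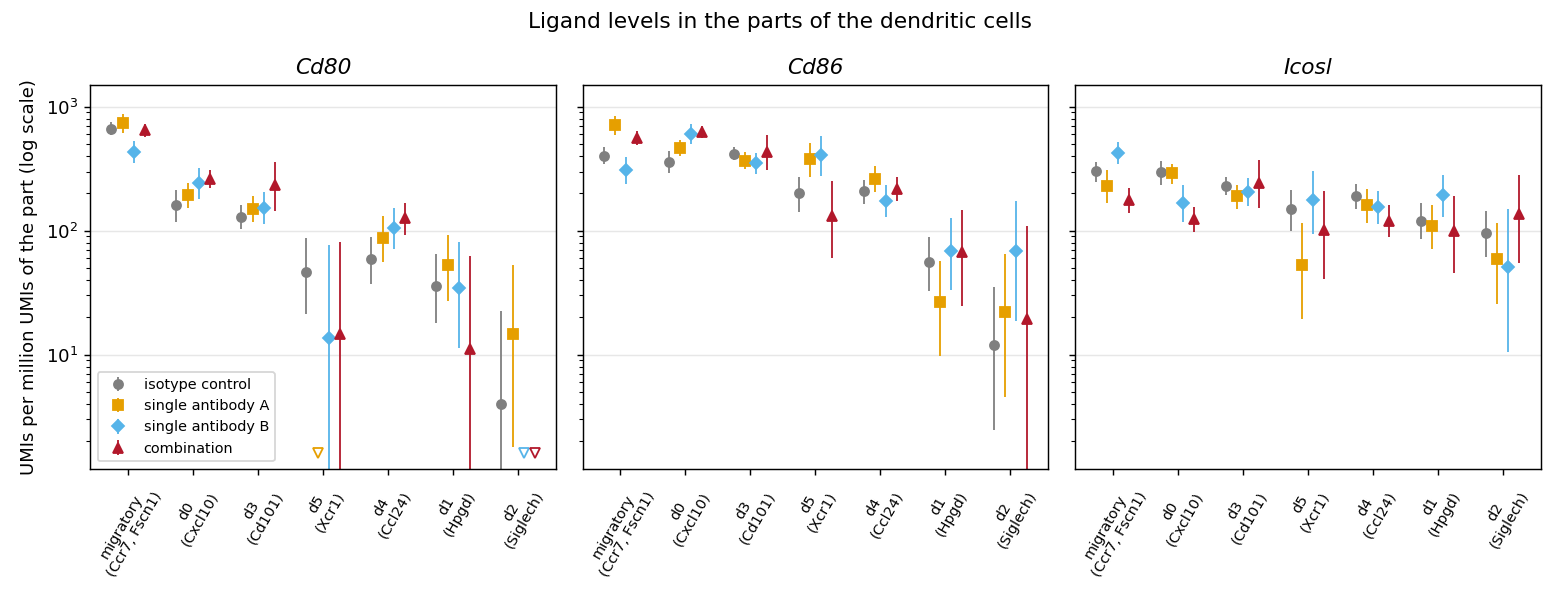
Levels of Cd80, Cd86 and Icosl (CPM, log axis) in 7 parts of the dendritic cells, each named with leading genes, with 1 point per library and exact 95% Poisson intervals, and open triangles where no UMI was counted. Lower ends of some intervals run past the axis. Cd80 spans 6.06 (Siglech part) to 628 (migratory cells) over all libraries, a wider span than between libraries.

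Neutrophils ranked first of 13 classes for Cd80 and low for Cd86 (mean 67.1 CPM, against 338 in dendritic cells). Cd80 was at 340 CPM in isotype control, 411 in A, 193 in B and 414 in the combination, and Cd86 at 39.7, 48.8, 98.2 and 81.7. Over all libraries 367 of 719 neutrophils had a Cd80 UMI and no Cd86 UMI and 17 had the reverse, whereas among migratory dendritic cells 79 of 104 had both. Thinned to 1867 UMIs, 45.1% of neutrophils had a Cd80 UMI, against 15.7% of the monocyte clusters and 1.03% of mast cells and basophils. The combination contributed 466 of the 719 neutrophils, and B 50. Icosl in neutrophils was at 101, 115, 63.1 and 94.2, and its ratio of combination to isotype control (0.93, 0.67 to 1.31) did not show the lower Icosl seen in macrophages.

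Other genes of the families and pathways were taken from lists chosen by what the genes do. Of the other CD28 family receptors, Pdcd1, which encodes PD-1, was at 233, 749, 363 and 450 CPM in T cells (ratio of combination to isotype control 1.93, 1.82 to 2.05), and Btla at 20.3, 28.6, 19.2 and 11.4 (0.56, 0.43 to 0.74), so neither was past 2-fold. Of the 6 other B7 family ligands and the BTLA ligand, 5 had at least 50 UMIs in monocytes and macrophages, and 2 of these were past 2-fold, against 2.43% of all genes in that class. Cd274, which encodes PD-L1, was at 133, 211, 101 and 451 (3.40, 3.34 to 3.47). Pdcd1lg2, which encodes PD-L2, was at 15.3, 27.8, 7.48 and 73.6 (4.83, 4.56 to 5.11). In dendritic cells the same 2 of 4 were past 2-fold, against 4.09% of all genes, with Cd274 at 186, 227, 172 and 597 and Pdcd1lg2 at 88.1, 126, 80.0 and 316. The median ratio was 1.39 in monocytes and macrophages and 2.31 in dendritic cells, against 0.94 for all genes tested in either class. List genes needed at least 50 UMIs, whereas the shares and medians of all genes used at least 50 CPM, so the 2 are not strictly alike.

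Downstream genes were taken in T cells. Of 21 genes that carry CD28 and ICOS signals, 21 had enough UMIs and none was past 2-fold, as were 1.90% of all genes there, with a median ratio of combination to isotype control of 1.01 against 0.98 for all genes. Beyond counting error, 6 of the 21 were above 1 and 3 below, but the share of all genes apart from 1 in this way is not given here. The counts are therefore not read as a result about these genes. Macrophage markers summed to 17007 CPM in T cells of isotype control and 14379 in the combination, and their part in these ratios was not tested. The highest were Plcg1 (1.22, 1.11 to 1.34), a phospholipase, and Nfatc1 (1.22, 1.14 to 1.30), a transcription factor. Of 8 genes for trafficking and turnover of the receptors none was past 2-fold either (median 1.01). The highest was Trat1 (1.42, 1.05 to 1.92) and the lowest Lrba (0.69, 0.59 to 0.80), which protects CTLA-4 from degradation. March1, a ubiquitin ligase that removes CD86 from the surface, was at 1.203 (1.18 to 1.23) in monocytes and macrophages and 0.76 (0.64 to 0.90) in dendritic cells. Of 5 genes used to check the Treg gate, Il2ra was past 2-fold in all T cells (302, 202, 331 and 138 CPM).

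Across 48 sums of a class in a library, the genes most like each member were found by Pearson's r of log2(CPM + 1), among 8833 genes. The sums share libraries and depth, so r is a description. For Ctla4 they were Ccr8 (0.91), Camk4 (0.91) and Cd247 (0.88). For Cd28 they were Cd2 (0.97), Zap70 (0.96) and Cd247 (0.95), and for Icos Cd247 (0.95), Camk4 (0.95) and Trbc2 (0.94). Ccr8 is a chemokine receptor of tumor Tregs, and the others are general T cell genes. For Cd80 they were Nod2 (0.88), Myd88 (0.87) and Ptafr (0.86), each highest in neutrophils. For Cd86 they were Gm2a (0.91), Necap2 (0.91) and H2-DMa (0.89), each highest in dendritic cells. For Icosl they were Cd83 (0.89), highest in dendritic cells, and Prr5l (0.88) and Slfn5 (0.88), highest in neutrophils. Among the members, r was 0.89 to 0.94 between the receptors, and 0.56 to 0.71 between the ligands.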

How the data were processed

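Single-cell RNA sequencing of sorted CD45+ cells was done with 1 pooled library per group (Chromium Flex, a probe-based assay on fixed cells). The authors deposited raw UMI counts per gene and cell, made with Cell Ranger (version 7.0.0 per the labels, 7.2.0 per the matrix header) against mm10. Medians were 14836 to 19115 UMIs per deposited cell. Cells with under 500 genes or over 10% mitochondrial UMIs (96) and the 5% with the highest doublet scores per library (1409) were left out. The authors removed doublets per sample with DoubletFinder in their own analysis, and whether the deposited matrices were made before or after that step is not given in the sources used here. Counts were normalised with sctransform 0.4.2, integrated and clustered at resolution 0.8 in Seurat 5.3.0 (R 4.3.3), with the 6 genes left out of the features. Clusters were named from markers, and T cell subsets by UMIs of Cd4, Cd8a, Cd8b1 and Foxp3.

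UMIs were summed per class and library and given in CPM (per 1000000 UMIs of the class). Intervals for levels are exact Poisson, for ratios exact conditional binomial, for shares exact Clopper-Pearson, and for ratios per Cd3 UMI they rest on the log ratio (Python 3.11.15, scipy 1.17.1). They cover counting error only. With 1 library per group no test was run. For the members and the shares of all genes, a gene was counted as past 2-fold where its level was at least 50 CPM in either library. For the lists it needed at least 50 UMIs in either library instead. In counts drawn at random for 5201 genes of T cells, 99.0% of 200 genes changed 4-fold were recovered. Such changes lie well past the 2-fold line, so this does not measure how well smaller differences would be found. It does not cover spread between animals or libraries. The 6 genes and the lists were chosen with earlier results of these data known. All 6 were described. From each list the genes past 2-fold with at least 50 UMIs were named, or else the highest and the lowest, as were the 3 genes most correlated with each member. Alternatives were other doublet, cell, resolution, integration, scaling, lineage, gate, thinning and level settings, and 6 more chosen after seeing the data. No paired libraries exist.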

Additional observations from a re-analysis of the deposited data

How the results depend on the processing

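For 15 ratios of combination to isotype control, 156 values under other settings were computed. Of these, 112 moved by no more than counting error, and 144 stayed on the same side of 1. Of those on the other side, 2 belonged to ratios that stood apart from 1: Cd28 in CD8 T cells turned from 1.35 to 0.96 without cells that carried markers of the other lineage, and Icos in conventional CD4 T cells from 0.80 to 1.02 as a mean over cells. No paired analysis was possible because each group is 1 library, and no library could be left out in turn. With doublets kept, the ratios were 0.81 for Cd28 and 0.55 for Icos in T cells, 0.87 for Cd28 and 0.65 for Icos in conventional CD4 T cells, and 0.90 for Ctla4, 1.03 for Cd28 and 1.10 for Icos in CD8 T cells. At resolution 0.4 they were 0.89 for Cd28 and 0.51 for Icos in T cells, 0.68 for Icos in conventional CD4 T cells, and 1.70 for Ctla4 and 1.90 for Icos in CD8 T cells. Without integration, conventional CD4 T cells gave 1.31 for Cd28 and 0.93 for Icos. As means over cells, the ratios were 0.87 for Cd28 and 0.57 for Icos in T cells, 1.13 for Cd28 and 1.08 for Icos in CD8 T cells, and 2.02 for Cd80 and 1.99 for Cd86 in dendritic cells. Without cells that carried markers of the other lineage, they were 0.43 for Ctla4, 0.80 for Cd28 and 0.47 for Icos in T cells, and 1.01 for Icos in CD8 T cells. With the gate on thinned cells, they were 0.99 for Icos in conventional CD4 T cells, and 0.92 for Ctla4, 1.04 for Cd28 and 1.2 for Icos in CD8 T cells. Size factors by the median of ratios gave 1.47 for Cd80, 1.47 for Cd86 and 0.58 for Icosl in monocytes and macrophages. These factors take out a shift of -0.10 on the log2 scale between combination and isotype control, so every ratio there rises. Among settings chosen after seeing the data, leaving out Tregs gave 0.95 for Ctla4 and 0.92 for Icos in T cells. UMIs per Cd3 UMI gave 0.45 for Ctla4, 0.86 for Cd28 and 0.56 for Icos in T cells, and 1.14 for Cd28 and 1.19 for Icos in CD8 T cells. Without the deeper T cell cluster the ratios were 0.88 for Cd28 and 0.51 for Icos in T cells, 0.69 for Icos in conventional CD4 T cells and 1.85 for Icos in CD8 T cells. Unthinned shares in isotype control and combination were 46.5% and 44.1% for Ctla4, 67.2% and 70.0% for Cd28 and 74.0% and 71.3% for Icos in T cells, and 40.4% and 54.3% for Cd80, 71.7% and 84.7% for Cd86 and 57.1% and 46.6% for Icosl in monocytes and macrophages. With no minimum level, the share of genes past 2-fold was 16.7% in T cells, 21.5% in conventional CD4 T cells, 17.0% in CD8 T cells, 22.4% in monocytes and macrophages and 20.9% in dendritic cells, and with at least 10 CPM it was 9.82% in conventional CD4 T cells and 7.08% in dendritic cells. Apart from what a setting itself changes, the cause was not tested. Few cells lie behind the values of the 9 Tregs of the combination, the 44 conventional CD4 T cells of B, the 8 to 23 B cells per library and the dendritic parts with 5 to 7 cells of the combination.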
